A study of Mus musculus with 6 samples.

Results

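The Bcl2 family apoptosis regulators described here were the 10 genes Bcl2, Bcl2l1, Mcl1, Bax, Bak1, Bcl2l11, Bbc3, Pmaip1, Bid and Bmf. They were taken by gene name from an RNA-seq table with 22969 gene names, and all 10 were found, each in 1 row. The table compares mouse embryonic stem cells (ESCs) of the E14Tg2a line at passages 37 to 40. ESCs kept with leukemia inhibitory factor (LIF) gave 3 samples, and cells of that line grown without LIF in 1 μM retinoic acid (RA) for 2 days (48 h) gave the other 3, which the study calls neuronal cells (NCs). RNA of each sample came from a pair of culture plates. All samples derive from 1 line, and no group with LIF withdrawn and no RA was analysed here, so the effects of losing LIF and of adding RA cannot be told apart.

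The authors deposited 1 pooled value per gene and condition in FPKM, fragments scaled to transcript length and to the number of mapped fragments. Values of single samples are not in that table, and the columns with the authors' own test were not used. No SD and no test between the conditions was therefore computed here, and no difference below is set against the spread between replicates. Differences are stated as ratios of the deposited FPKM, with a 2-fold limit used for counting, over the 13292 genes with at least 1 FPKM in either condition. Of these genes, 12.5% lay at least 2-fold higher in NCs, 10.6% at least 2-fold lower, and 23.1% past the limit in either direction.

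Bcl2 family proteins decide whether the outer mitochondrial membrane stays intact. Pro-survival members hold the effectors in check, effectors form pores that release cytochrome c, and BH3-only proteins sense stress and either occupy the pro-survival proteins or activate the effectors. A short helix, the BH3 domain, is the part by which these proteins bind each other. Pluripotent stem cells are known for a low threshold for apoptosis.

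The coding sequence of the BH3 core is shown because it is the feature that all 3 roles share. Each reference coding sequence was searched for a codon for leucine, 3 codons of any kind, a codon for glycine or alanine, and a codon for aspartate. The capitals mark these 18 bases of the core and the lower case marks 6 bases on each side, read 5′ to 3′ on the coding strand of GENCODE M21 transcripts (GRCm38, the assembly that mm10 denotes).
Bcl2: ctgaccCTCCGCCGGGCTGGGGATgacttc
Bcl2l1: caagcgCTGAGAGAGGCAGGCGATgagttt
Mcl1: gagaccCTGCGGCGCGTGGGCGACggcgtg
Bax: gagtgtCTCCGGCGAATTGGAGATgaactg
Bak1: cggcagCTTGCTCTCATCGGAGATgatatt
Bcl2l11: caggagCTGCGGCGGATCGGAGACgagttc
Bbc3: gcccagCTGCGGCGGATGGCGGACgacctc
Bid: agacatCTCGCCCAAATAGGCGATgagatg
Bmf: agaaagCTTCAGTGTATTGCAGACcagttc

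Each of these 9 coding sequences held 1 such match, and that of Pmaip1 held 2. The core lay in exon 1 of the transcript in Bcl2 (chromosome 1, 106712584 to 106712601) and in Mcl1 (chromosome 3, 95659436 to 95659453). It lay in exon 2 of Bcl2l1 (chromosome 2, 152829706 to 152829723) and in exon 3 of Bax (chromosome 7, 45466006 to 45466023), Bcl2l11 (chromosome 2, 128147150 to 128147167) and Bbc3 (chromosome 7, 16313773 to 16313790). In Bak1 (chromosome 17, 27022540 to 27022557), Bid (chromosome 6, 120897298 to 120897315) and Bmf (chromosome 2, 118545109 to 118545126) it lay in exon 4. Against the core of Bcl2l11, the other cores shown had between 9 identical bases (Bcl2l1 and Bid) and 15 (Bbc3) of 18. Mcl1 and Bax each shared 14 of the 18 bases with Bcl2l11, and the 2 matches of Pmaip1 shared 14 and 15.

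The pro-survival genes differed in direction. Bcl2l1 and Bcl2 were higher in NCs by more than 2-fold, while Mcl1 was lower by less than 2-fold. Mcl1 (chromosome 3, 95658788 to 95663176, plus strand) encodes a pro-survival protein with a very short half-life. It had 172 FPKM in ESCs against 94.4 in NCs, a 1.82-fold lower value (log2 ratio -0.86). It ranked 2 among the 10 members in both conditions.

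Bcl2l1 (chromosome 2, 152780668 to 152831728, minus strand) encodes BCL-XL, a longer-lived pro-survival protein. Its FPKM was 16.7 in ESCs and 39.6 in NCs, which is 2.38-fold higher (log2 ratio 1.25). Among all 13292 genes, 90.3% had a lower ratio. A shorter isoform of this gene, BCL-XS, is known to act in the opposite way. The annotation lists 9 transcripts, and the deposited value covers the gene as a whole.

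Bcl2 (chromosome 1, 106538178 to 106714274, minus strand), the founding member of the family, was the lowest of the 10 genes in both conditions. It had 0.358 FPKM in ESCs against 1.04 in NCs, a 2.90-fold higher value (log2 ratio 1.54). Bcl2 passed the limit of 1 FPKM only through its NC value. With 1 FPKM added to both values its log2 ratio was 0.59, within the 2-fold limit. Read from the step between the lowest FPKM values, its levels correspond to about 69 fragments in ESCs and 203 in NCs over the pooled libraries. These counts take its shortest coding transcript, of 2841 bases. Counting error alone then gives an exact (Clopper-Pearson) 95% interval of 2.19-fold to 3.85-fold, which does not cover the spread between samples. The NC values showed more than 1 step, and the most frequent one gave 384 fragments and an interval of 2.23-fold to 3.79-fold. With the longest coding transcript, of 7191 bases, the step first used gave 182 and 538 fragments and an interval of 2.445-fold to 3.448-fold. Of its exon bases, 6.09% lie under an antisense gene, D630008O14Rik, whose part in the Bcl2 value was not tested.

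Within the pro-survival role the make-up differed between the conditions more than the total did. Mcl1 made up 91.0% of the summed pro-survival FPKM in ESCs and 69.9% in NCs. Bcl2l1 made up 8.82% in ESCs and 29.3% in NCs, and Bcl2 stayed under 1% with 0.189% and 0.769%. Mcl1 was 10.3 times as abundant as Bcl2l1 per transcript length in ESCs and 2.39 times in NCs. The ratio of the pair therefore differed 4.33-fold between conditions. A ratio within 1 condition does not depend on how the conditions were scaled to each other.

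**Figure D1:**
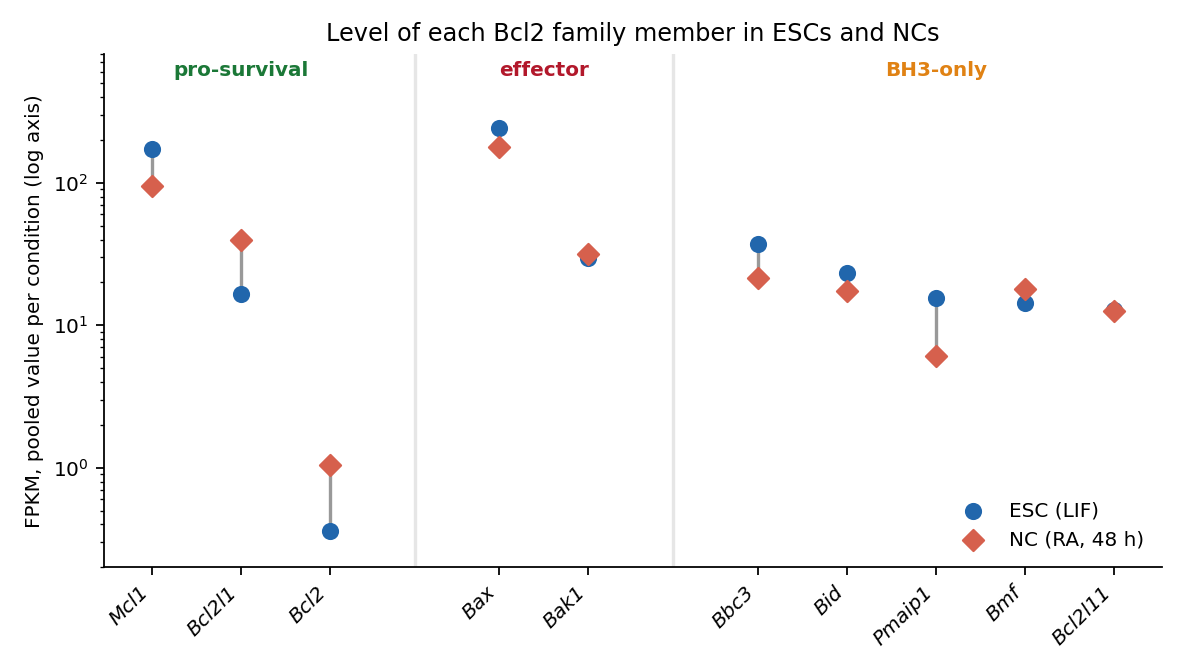
Each point is the authors' pooled FPKM of 1 gene on a log axis, with circles for ESCs and diamonds for NCs, grouped by role and ordered by the ESC level. Bcl2l1 and Bcl2 sit higher in NCs, Mcl1 and Pmaip1 sit lower, and the 2 points of Bak1 and of Bcl2l11 nearly coincide; no error bars are drawn because the values are pooled.

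The effector genes stayed within 1.5-fold. Bax (chromosome 7, 45461697 to 45466898, minus strand) encodes a pore former that rests largely in the cytosol until activated. It was the most abundant member in both conditions, with 242 FPKM in ESCs against 178 in NCs, and was 1.36-fold lower in NCs. In each condition its level exceeded that of at least 96.6% of the 13292 genes. A predicted gene on the same strand, Gm45808, covers 12.2% of its exon bases, and the part of that gene in the Bax value was not tested.

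Bak1 (chromosome 17, 27019810 to 27029009, minus strand) encodes the effector that is anchored in the mitochondrial outer membrane. It had 29.5 FPKM in ESCs against 31.8 in NCs, a ratio of 1.08. The antisense gene Ggnbp1, with 9.01 FPKM in ESCs against 2.45 in NCs, covers 25.5% of the Bak1 exon bases. The sources used here do not say whether strand was used in assigning fragments, so its part in the Bak1 value was not tested. Bax was 8.21 times as abundant as Bak1 in ESCs and 5.59 times in NCs.

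Of the 5 BH3-only genes, Pmaip1 was past the 2-fold limit, Bbc3 was past 1.5-fold, and Bid, Bcl2l11 and Bmf were within 1.5-fold. Pmaip1 (chromosome 18, 66458533 to 66465565, plus strand) encodes NOXA, which binds MCL-1 with preference. It had 15.5 FPKM in ESCs against 6.14 in NCs and was 2.53-fold lower (log2 ratio -1.34). Only 6.96% of the 13292 genes had a lower ratio. Bbc3 (chromosome 7, 16308393 to 16318205, plus strand) encodes PUMA, which binds all the pro-survival proteins. Its FPKM was 37.4 in ESCs and 21.6 in NCs, 1.73-fold lower, and it was the most abundant BH3-only gene in both conditions.

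Bid (chromosome 6, 120891930 to 120916853, minus strand) encodes a protein that caspase 8 cleaves, which links death receptors to mitochondria. It had 23.4 FPKM in ESCs against 17.3 in NCs, 1.35-fold lower. Another family gene, Bcl2l13, lies antisense over 17.7% of the Bid exon bases and had 15.4 FPKM in ESCs against 19.6 in NCs. The part of Bcl2l13 in the Bid value was not tested. Bmf (chromosome 2, 118528757 to 118549687, minus strand) encodes a protein that a myosin motor complex holds at the cytoskeleton in healthy cells. Of the 5 BH3-only members, Bmf was the one with the higher value in NCs, at 14.4 FPKM in ESCs against 17.8 in NCs, a ratio of 1.24.

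Bcl2l11 (chromosome 2, 128126038 to 128162547, plus strand) encodes BIM, a potent activator that binds every pro-survival protein. It had 12.8 FPKM in ESCs against 12.5 in NCs. The log2 ratio of -0.04 turned to 0.0099 when all ratios were centred on their median and to 0.26 when the columns were scaled to equal sums, so no direction can be given. Counting error alone allowed ratios between 0.851 and 1.11 for its shortest coding transcript.

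In ESCs the order from the highest level to the lowest was Bax, Mcl1, Bbc3, Bak1, Bid, Bcl2l1, Pmaip1, Bmf, Bcl2l11 and Bcl2. In NCs it was Bax, Mcl1, Bcl2l1, Bak1, Bbc3, Bmf, Bid, Bcl2l11, Pmaip1 and Bcl2. Bcl2l1 ranked 6 in ESCs and 3 in NCs, and Bbc3 ranked 3 in ESCs and 5 in NCs. No spread over samples was at hand, so differences between neighbours in either order were not tested. The closest neighbours were Bmf and Bid in NCs, 1.03-fold apart.

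The log2 ratios of all 10 members ran from -1.34 for Pmaip1 to 1.54 for Bcl2. Past the 2-fold limit lay 2 members with the higher value in NCs, Bcl2 and Bcl2l1, and 1 with the lower, Pmaip1. These 3 of 10 stand beside the 23.1% of all genes past the limit, a share close to that background. At a 1.5-fold limit, 2 members lay higher and 3 lower, beside 20.6% of all genes higher and 19.3% lower. With the columns also scaled to equal sums, a setting chosen after seeing the data, the 1.5-fold counts were 3 higher (Bcl2, Bcl2l1 and Bmf) and 1 lower (Pmaip1). That scaling moved all genes the same way. At the 2-fold limit it put 2349 genes higher and 979 lower, in place of 1657 and 1412. The share of all genes past 1.5-fold under it was not computed, so those member counts have no matching background. The median log2 ratio was -0.24 over the members and -0.03 over all genes.

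**Figure D2:**
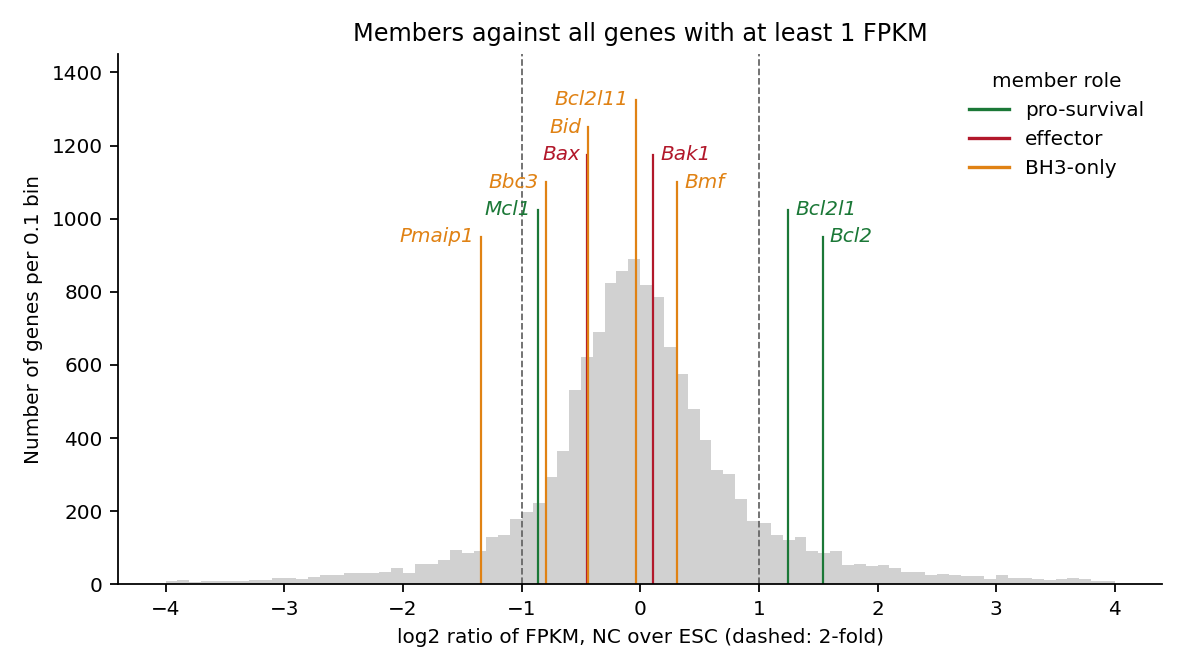
The grey histogram counts genes with at least 1 FPKM in either condition by their log2 ratio of NC over ESC in bins of 0.1, drawn between -4 and 4, and the vertical lines mark the 10 members, coloured by role. Pmaip1 lies beyond the left 2-fold mark and Bcl2l1 and Bcl2 beyond the right one, with the other 7 members between them.

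Summed over a role, FPKM was lower in NCs for all 3 roles, and by similar ratios. The pro-survival sum was 189 FPKM in ESCs against 135 in NCs, 1.40-fold lower. The effector sum was 272 and 210 FPKM, 1.30-fold lower, and the BH3-only sum was 104 and 75.4 FPKM, 1.37-fold lower. The sum over all genes was lower in NCs too, at 770592 FPKM in ESCs against 628679 in NCs. With the columns scaled to equal sums, also chosen after seeing the data, the role sums were 1.14-fold, 1.06-fold and 1.12-fold lower in the same order. Pro-survival over effector FPKM came to 0.695 in ESCs and 0.644 in NCs, and BH3-only over pro-survival FPKM to 0.548 and 0.558.

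These near-equal ratios rested on the most abundant member of each role. Without Mcl1, Bax and Bbc3, the pro-survival sum over the effector sum was higher in NCs, with a log2 difference of 1.15 in place of -0.11. That ratio then sets Bcl2l1 and Bcl2 against Bak1 alone, so it describes these genes rather than the roles. Means of log2(FPKM + 1), which keep every member, moved the result too. They gave a difference of 0.48 for pro-survival over effector. For BH3-only over pro-survival the difference was -0.74 in place of 0.03. All role sums cover the 10 members only and leave out 7 other Bcl2 family genes with at least 1 FPKM. Such sums weigh transcripts per length and take no account of protein stability or binding strength.

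Within the BH3-only role, Bbc3 gave 36.1% of the sum in ESCs and 28.7% in NCs. Pmaip1 gave 8.14% in NCs, and the difference from its share in ESCs was -6.85 percentage points. The share of Bmf was 13.9% in ESCs and 23.7% in NCs, and that of Bid was nearly the same in both, 22.6% and 22.9%. Bcl2l11 gave 12.4% in ESCs and 16.6% in NCs, with hardly any difference in its own FPKM.

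**Figure D3:**
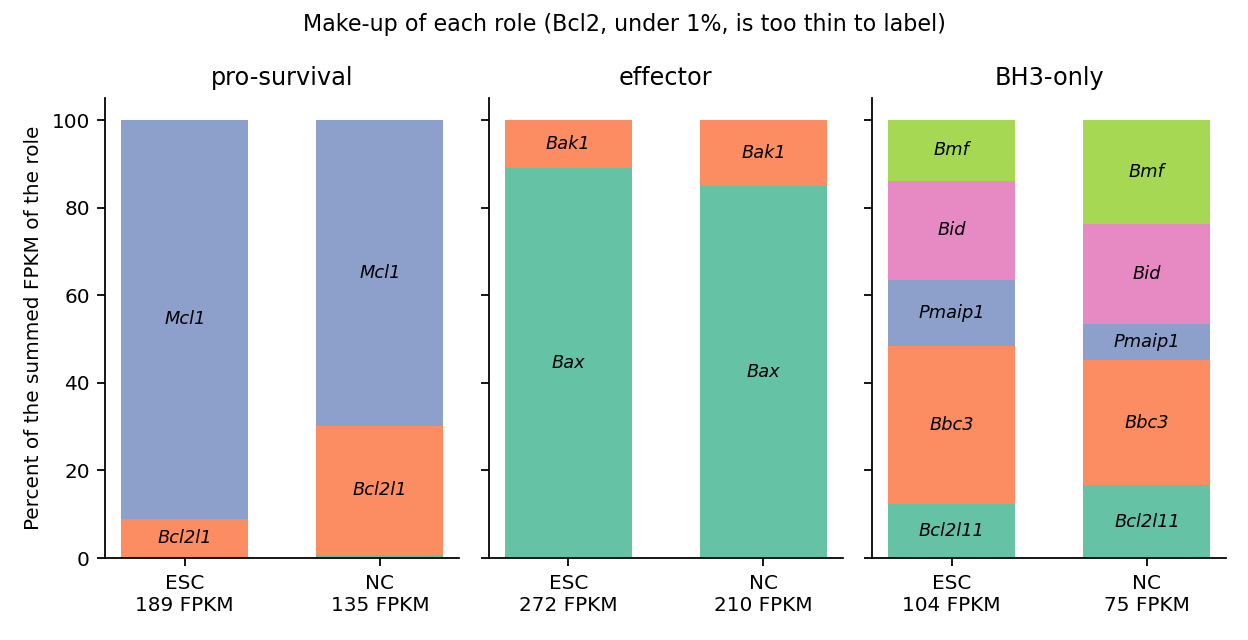
Stacked bars give the percent of the summed FPKM of each role that each member contributes, in ESCs and NCs, with the sum of the role under each bar. The band of Bcl2l1 widens from 8.82% in ESCs to 29.3% in NCs as that of Mcl1 narrows from 91.0% to 69.9%, while Bax fills most of the effector bar in both conditions.

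Several factors known to act on BH3-only genes had lower values in NCs. Of the 11 genes on this list, 10 had at least 1 FPKM, of which 3 lay at least 2-fold lower and 1 at least 2-fold higher, with a median log2 ratio of -0.63. These 10 include Mdm2, a regulator of p53 rather than such a factor, with 57.9 FPKM in ESCs against 40.1 in NCs (log2 ratio -0.53). Over all genes 10.6% lay at least 2-fold lower and 12.5% at least 2-fold higher. Trp53 encodes p53, for which Bbc3, Pmaip1 and Bax are known target genes. It was the most abundant gene of the list, at 189 FPKM in ESCs against 110.2 in NCs, 1.72-fold lower, beside 2.53-fold for Pmaip1, 1.73-fold for Bbc3 and 1.36-fold for Bax. Its relative Trp73 had 2.51 FPKM in ESCs against 0.155 in NCs, and passed the limit of 1 FPKM only through its ESC value.

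Atf4, a factor of the integrated stress response that is known to act on Pmaip1, was 2.25-fold lower, with 123 FPKM in ESCs against 54.8 in NCs. Ddit3, which encodes CHOP in the same response, was 2.66-fold lower, with 40.8 and 15.4 FPKM. Myc was 2.18-fold higher, with 4.76 FPKM in ESCs against 10.3 in NCs, and came within the 2-fold limit with 1 FPKM added (log2 ratio 0.98). Whether any of these bears on the members was not tested.

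The region before the Bax start site is shown because it held a p53 half-site, only part of a p53 binding element, and CACGTG. The letters CACGTG are known as a binding element of the MYC class of factors. RefSeq start windows (GRCm38.p6), each running from 250 bases before to 50 bases after a start, were found for 9 of the 10 members, 16 windows in all. Pmaip1 had none. The run below is the part before the start, 5′ to 3′ on the minus strand (chr7:45466899-45467148), and the capitals mark the p53 half-site consensus and the letters CACGTG.
Bax: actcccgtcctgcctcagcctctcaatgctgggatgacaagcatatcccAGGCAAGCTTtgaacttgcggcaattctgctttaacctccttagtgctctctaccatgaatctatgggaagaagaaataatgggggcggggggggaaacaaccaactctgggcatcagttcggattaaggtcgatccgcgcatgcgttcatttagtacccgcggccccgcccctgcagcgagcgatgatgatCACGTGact
The p53 half-site began 201 bases before the start, and CACGTG began 9 bases before it and again 35 bases after it. None of these overlapped another.

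A p53 half-site was also in 1 window of Bmf, and 8.36% of all 32851 windows held one. CACGTG, which reads the same on both strands, was also in 1 window of Bbc3, against 7.15% of all windows. The forkhead letters GTAAACA, searched on both strands, were in 1 window each of Bcl2l11 and Bbc3, against 3.65% of all windows. A match describes these letters only.

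In the other 6 apoptosis lists, 6 of the 47 genes with at least 1 FPKM lay past the 2-fold limit, 1 in each list. This is 12.8%, beside 23.1% of all genes. With 1 FPKM added, a setting chosen for these lists after seeing the data, 3 of the 47 were past it. With the same addition, 1073 of all 13292 genes lay at least 2-fold higher and 974 at least 2-fold lower. The other Bcl2 family list has 13 genes, of which 7 had at least 1 FPKM. The level of Bcl2l13, a mitophagy receptor of the outer membrane and the highest of this list, is given beside Bid. Bcl2l14 was past the limit, with 1.58 FPKM in ESCs against 0.548 in NCs. It passed 1 FPKM only through its ESC value, and its log2 ratio was -0.74 with 1 FPKM added. Bad, whose protein binds BCL-XL unless phosphorylated, had 6.25 FPKM in ESCs against 10.7 in NCs. Bok, an effector-like gene, had 11.4 FPKM in ESCs against 18.0 in NCs. Bad and Bok lay past 1.5-fold and were chosen after their values were seen. Bcl2a1a, Bcl2a1b and Bcl2a1d, near-identical copies, were listed at 0 in both conditions.

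Downstream of the mitochondria, all 10 genes of the apoptosome and release list had at least 1 FPKM, and 1 of them was at least 2-fold lower. This was Vdac1, the main channel of the outer membrane, with 436 FPKM in ESCs against 212 in NCs. Of 10 caspase genes, 6 had at least 1 FPKM. Casp8, the initiator caspase that cleaves BID, was 2.28-fold higher in NCs, with 1.72 FPKM in ESCs against 3.91 in NCs. With 1 FPKM added it came within the limit (log2 ratio 0.85).

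Among 10 inhibitor of apoptosis (IAP) genes, 6 had at least 1 FPKM, and Birc3 was past the limit with 1.86 FPKM in ESCs against 0.782 in NCs. It too passed 1 FPKM only through its ESC value, and its log2 ratio was -0.68 with 1 FPKM added. Birc5, which encodes survivin, a protein of mitosis as well, was the highest at 162 and 140.1 FPKM. In the death receptor list 6 of 10 genes had at least 1 FPKM. Fadd, the adaptor that recruits caspase 8, was 2.63-fold higher, with 1.88 FPKM in ESCs against 4.94 in NCs, and Tnfrsf10b, a TRAIL receptor, was the highest at 15.3 and 13.0 FPKM.

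Of 12 genes for proteins that act on Bcl2 family proteins or bind them, all had at least 1 FPKM and 1 was past the limit. Bnip3, a BH3-containing mitophagy receptor, was 3.07-fold lower, with 146 FPKM in ESCs against 47.5 in NCs. The highest was Ywhaz, whose protein holds phosphorylated BAD in the cytosol, with 214 and 197 FPKM. The medians of these 6 lists ran from -0.21 for the IAP genes to 0.35 for the other Bcl2 family genes, beside -0.03 over all genes.

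**Figure D4:**
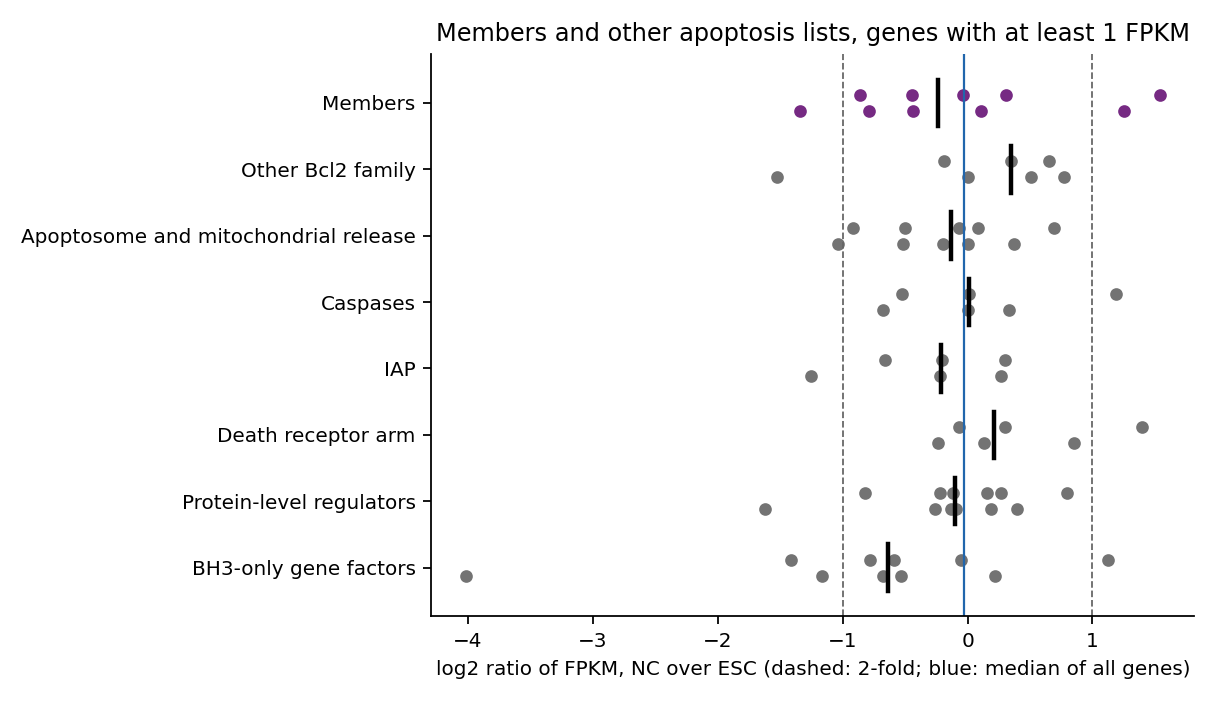
Each point is the log2 ratio of NC over ESC for 1 gene with at least 1 FPKM in either condition, black bars are list medians, and the blue line is the median of all genes. In each of the 6 other lists 1 point lies past the dashed 2-fold lines. In the list of factors known for BH3-only genes, which also holds Mdm2, 4 of 10 do, 3 lower and 1 higher. That list has the lowest median, -0.63.

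The labels of the conditions were set against marker genes. All 6 pluripotency markers were at least 2-fold lower in NCs, with a summed level of 2305 FPKM in ESCs against 152 in NCs, and all 5 RA response genes were at least 2-fold higher. Neural progenitor markers summed to 18.4 FPKM in ESCs against 109 in NCs, with 3 of 5 at least 2-fold higher. Neuron markers were lower in sum in the NC group, at 42.8 FPKM in ESCs against 11.7 in NCs, and Tubb3 carried most of it with 33.4 and 7.54 FPKM. Of the 5, Tubb3 and Elavl3 were at least 2-fold lower, and Rbfox3 (0.832 FPKM), Elavl3 (0.632 FPKM) and Dcx were under 1 FPKM in NCs. Dcx had 0.014 FPKM in ESCs against 0.334 in NCs. Fibroblast markers summed to 20.4 and 44.7 FPKM, with 4 of 5 at least 2-fold higher and levels from 1.80 to 23.3 FPKM in NCs. The remaining fibroblast marker, Thy1, was 5.36-fold lower, with 9.64 FPKM in ESCs against 1.80 in NCs. Endoderm markers summed to 7.16 and 18.5 FPKM, with 3 of 5 (Foxa2, Sox17 and Gata6) at least 2-fold higher in NCs. Afp was under 1 FPKM in both conditions, and all 4 mesoderm markers were under 1 FPKM in both. The part of such cells in the values of the members was not tested, and in bulk samples fewer cells of a type cannot be told apart from less RNA per cell.

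The way the conditions were scaled moved every ratio by the same amount. The FPKM values summed to 770592 in ESCs and 628679 in NCs, and scaling both columns to equal sums would raise every log2 ratio by 0.29 and put 70.6% rather than 54.0% of the genes past the 2-fold limit on the higher side. Under that scaling Bcl2, Bcl2l1, Bmf and Bak1 still had the higher value in NCs. Mcl1, Bbc3, Bax, Bid and Pmaip1 still had the lower, and Pmaip1 remained the only member at least 2-fold lower, with a log2 ratio of -1.05. Counts for the other apoptosis lists and the BH3-only gene factors were not repeated under that scaling, and they would differ. Among others, Atf4 (deposited log2 ratio -1.17) and Vdac1 (-1.04) would come within the 2-fold limit, and Bad (0.77) would pass it.

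**Figure D5:**
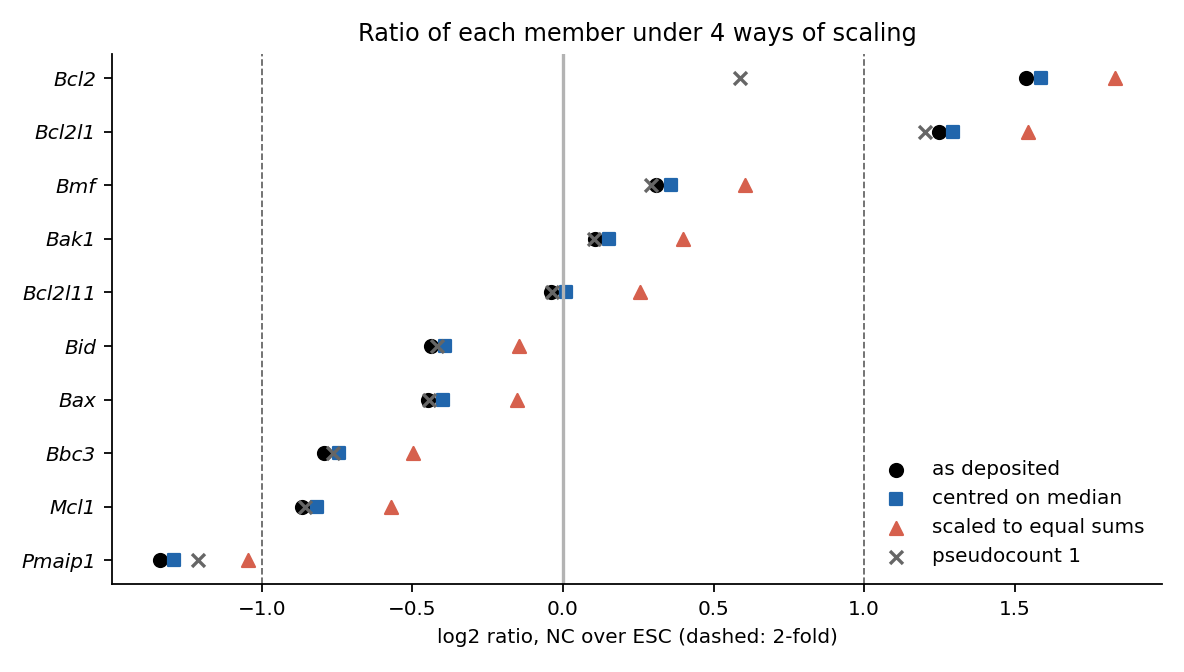
The log2 ratio of NC over ESC of each member is plotted as deposited, after centring on the median of all genes, after scaling to equal sums and with 1 FPKM added. Bcl2l11 crosses 0, Bcl2 moves inside the dashed 2-fold line when 1 FPKM is added (log2 ratio 0.59), and Bcl2l1 and Pmaip1 stay past it under all 4.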

How the data were processed

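RNA-seq was performed on 3 ESC and 3 NC samples. The authors aligned reads to mm10 with TopHat2 (version 2.0.8) and Bowtie2 (version 2.1.0), assembled transcripts with Cufflinks 2.0.2, merged them with Cuffmerge and ran Cuffdiff. The authors deposited FPKM values, 1 pooled value per gene and condition. The NC heading is cut to FPK, which was read as FPKM. The table also holds fold changes, test statistics, p-values and q-values from the authors' comparison, which were not used. The gene annotation release, the normalization option of Cuffdiff and the use of strand are not given in the sources used here.

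Rows with the same name were summed (160 names). Log2 ratios were computed without a pseudocount. Every member was named, and from each other list the genes past the 2-fold limit (at most 3 in each direction) and the most abundant gene. A result within this rule is not reported here. For the members with the largest positive and negative ratios, the 3 genes with the nearest values were named. Members and lists were chosen with earlier results of these data known. Alternatives covered pseudocounts of 0.1 and 1, centring, scaling to equal sums, fold limits of 1.5 and 4, filters on FPKM and other role sums. 4 settings were added after seeing the data. The values are pooled, so no test was run here.

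Depth per sample is unknown. FPKM of genes with a single transcript fell on several steps. The step used, the median of values within a window of 0.013 to 0.014 set by hand after these values were seen, was 0.0138 FPKM in ESCs against 0.0135 in NCs for 1 fragment in 1 kb, at an assumed fragment length of 200 bases. With no window the most frequent step was 0.0138 in ESCs and 0.00715 in NCs. Intervals from it cover counting error only. Positions and transcripts are from GENCODE M21, and 50-base words of transcripts were compared between genes. Those of Bak1 (17.1%) and Bid (16.4%) recurred most in other genes, mainly in their antisense partners. The ratios and counts were tested on simulated data. Computations used Python 3.11.15 with pandas 2.3.3, numpy 2.4.6 and scipy 1.17.1, and plots matplotlib 3.10.9.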

Additional observations from a re-analysis of the deposited data

How the results depend on the processing

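Of 74 combinations of a result and an alternative setting, 62 were rated the same as in the main setting. For the ratio of a member this means the same direction and the same side of the 2-fold limit. For a count, or a ratio of role sums, it means a value within 1.5-fold of the main one. For Bcl2l11 the log2 ratio turned positive after centring (0.0099) and after scaling to equal sums (0.26), because its ratio lay nearest to 0. For Bcl2 it was 0.59 with 1 FPKM added, which takes it within the 2-fold limit. The count of members at least 2-fold higher was 1 with 1 FPKM added or with a filter at 5 FPKM, which leaves out Bcl2, and 0 at a 4-fold limit. In a setting chosen after seeing the data, scaling to equal sums with a 1.5-fold limit, the count at least 1.5-fold lower was 1 in place of 3. The share of all genes at that setting was not computed, so this count has no matching background. The count at least 2-fold lower was 3 at a 1.5-fold limit and 0 at a 4-fold limit. Without the most abundant member of each role, the log2 difference between conditions was 1.15 for pro-survival over effector and -1.56 for BH3-only over pro-survival, in place of -0.11 and 0.03. With means of log2(FPKM + 1) these were 0.48 and -0.74. Over all genes, the count past the 2-fold limit was 1657 higher and 1412 lower, and 1073 and 974 with 1 FPKM added, 2349 and 979 after scaling to equal sums, 2943 and 2401 with no filter, 821 and 863 with a filter at 5 FPKM, 2740 and 2572 at 1.5-fold and 678 and 488 at 4-fold. No paired analysis was possible because the columns carry no replicate numbers, and for the same reason no replicate could be left out. Depth per sample is unknown, and by the fragment step Bcl2 had the fewest fragments of the members.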

Other observations

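The genes whose FPKM values in both conditions lay nearest to those of Bcl2, by distance in log2(FPKM + 1) over the 2 pooled values, were Gpr146, Cadm3 and Vmn2r55. Gpr146 had 0.363 FPKM in ESCs against 1.02 in NCs, at a distance of 0.0115 from Bcl2. Within a distance of 0.2 there were 84 genes. Nearest to Pmaip1 were Stk17b, Stac2 and 1190003J15Rik. Stk17b, which encodes a kinase of the death-associated family, had 15.8 FPKM in ESCs against 6.36 in NCs, at a distance of 0.0510, and 26 genes lay within 0.2. With 2 pooled values per gene, such closeness describes levels only.

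Levels of some pairs of members can be set side by side within a condition. Mcl1 was 11.1 times as abundant as Pmaip1 per transcript length in ESCs and 15.4 times in NCs. Bcl2l1 had 0.564 times the level of Bak1 in ESCs and 1.24 times in NCs. Bcl2l11 had 0.827 times the level of Pmaip1 in ESCs and 2.04 times in NCs. No error is given for these ratios, since each rests on 1 pooled value per condition.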
